A study of Mus musculus with 4 samples.

Results

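The genes described here encode the mTOR kinase complexes, the proteins that report amino acids and growth factors to them, their direct substrates, and the PI3K-AKT pathway upstream. They are 46 genes named by symbol, of 23259 symbols with a value in all 4 RNA-seq libraries of the series, and were named by the rule with no threshold on a measured value. All 46 were found, with Lamtor1, Lamtor4 and Lamtor5 under the older symbols 2400001E08Rik, 0910001L09Rik and Hbxip. The libraries came from macrophages grown out of the bone marrow of C57BL/6 mice aged 7 weeks and exposed for 24 h to IL-4, the cytokine of the alternative (anti-inflammatory, repair-type) macrophage state. There were 2 libraries labelled Sema6D-/-, from mice homozygous for a mutation of the semaphorin Sema6D, a transmembrane guidance protein, and 2 labelled wild type, and all 4 had received IL-4. Whether replicates are separate animals or cultures is not stated, so the spread behind each p-value may be technical. The title of the series links Sema6D to mTOR and to the lipid-sensing receptor PPARγ, so the comparison asks how transcripts of the mTOR pathway differ between the labels.

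mTOR is a protein kinase that works in a pair of complexes. mTORC1, built around Raptor, drives protein synthesis when amino acids and growth factors are present, and mTORC2, built around Rictor, phosphorylates AKT. Amino acids act through the Rag GTPases on the lysosome, which the Ragulator complex anchors there and the GATOR1 complex switches off, while growth factors act through PI3K and AKT, which release the GTPase Rheb from its inhibitor, the TSC complex. The pathway is set largely by phosphorylation and by where proteins sit in the cell, neither of which RNA levels report. In macrophages it takes part in the response to IL-4.

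Levels are given in FPKM, fragments scaled by transcript length and library size, which can be compared between genes because they are divided by length. Depth, read from the smallest values, came to about 8300000 fragments in each library labelled Sema6D-/- and 8900000 in each labelled wild type. The gap between these estimates is the step of the method, so a difference in depth between the labels was not resolved. The targeted gene was low throughout, with Sema6d at 0.106 and 0.315 FPKM in the libraries labelled Sema6D-/- and 0.166 and 0.389 FPKM in those labelled wild type. These levels overlap and do not check the genotype. The sample titles begin with W for the label Sema6D-/- and with K for the label wild type, and directions below follow the stated genotype. Whether the labels are exchanged was not settled by these files, and every higher or lower below would turn round if they were. Macrophage markers were abundant in every library, with 9 of 9 found and summed levels of 5432 and 5441 FPKM in libraries labelled Sema6D-/- and 6019 and 5740 FPKM in those labelled wild type. By the test used below, 1 of these markers was higher under Sema6D-/- (Adgre1, 1.41-fold) and 3 were lower (Cd14, 0.52-fold, Itgam and Lyz2). Markers of T cells summed to between 0.76 and 1.139 FPKM and those of B cells to between 0.214 and 1.145 FPKM. Mast cell and basophil markers summed to 3.862 and 3.186 FPKM under Sema6D-/- and 0.848 and 0.551 FPKM under wild type, with Mcpt8 higher by the test. Of 6 dendritic cell markers, 4 had a mean under 1 FPKM. Of those tested, Itgax was lower, at 303.9 and 319.9 FPKM under Sema6D-/- and 401.7 and 407.0 FPKM under wild type. Ccr7 was not called and its libraries overlapped. Neutrophil markers were present at 778.1 and 635.4 FPKM under Sema6D-/- and 240.8 and 226.8 FPKM under wild type, with 11 of 12 found, 6 higher and 1 lower (Csf3r) by the same test.

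Of the 46 genes, 43 had a mean of at least 1 FPKM and were tested. Only 2 of them differed between the labels at an adjusted p under 0.05, the translation repressor gene Eif4ebp1 and the sestrin gene Sesn1, both higher in the libraries labelled Sema6D-/-. The test was limma on log2(FPKM + 1) across 10115 genes, of which it called 9.72% in either direction, 4.8% higher and 4.91% lower. The 43 genes had 0 called lower, with 1 lower and 11 higher at an unadjusted p under 0.05. These 12 genes are 27.9% of the 43, against 25.1% of all tested genes. The median difference of the 43 genes, Sema6D-/- minus wild type, was 0.05 on the log2 scale, against 0.003 for all tested genes, and the median size regardless of sign was 0.134 against 0.112.

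The differences were small. In log2(FPKM + 1) they ranged from -0.32 for Prr5l to 0.39 for Sesn1. On that scale 38 of the 43 genes (88.4%) lay within 0.3 of no change, as did 84.2% of all tested genes. The 95% interval lay within 1, a change of FPKM + 1 by a factor of 2, for all 43 and within 0.5 for 38. In simulated data for this comparison the test recovered 30% of changes of 0.3 and 76% of changes of 0.5, among genes of at least 5 FPKM. A gene that did not pass may therefore still differ by such amounts. The simulation changed 50 genes at each size and gave 160 calls, against 983 in the real fit. Its recovery rates need not hold for these data. The libraries of the labels did not overlap for 30 of the 43 genes (69.8%, against 56.2% of all tested genes), 20 that were higher under Sema6D-/- (46.5% of the 43, against 28.8% of all tested genes) and 10 that were lower (23.3%, against 27.4%). Fewer cells of a type and less RNA per cell cannot be told apart in these bulk samples.

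**Figure D1:**
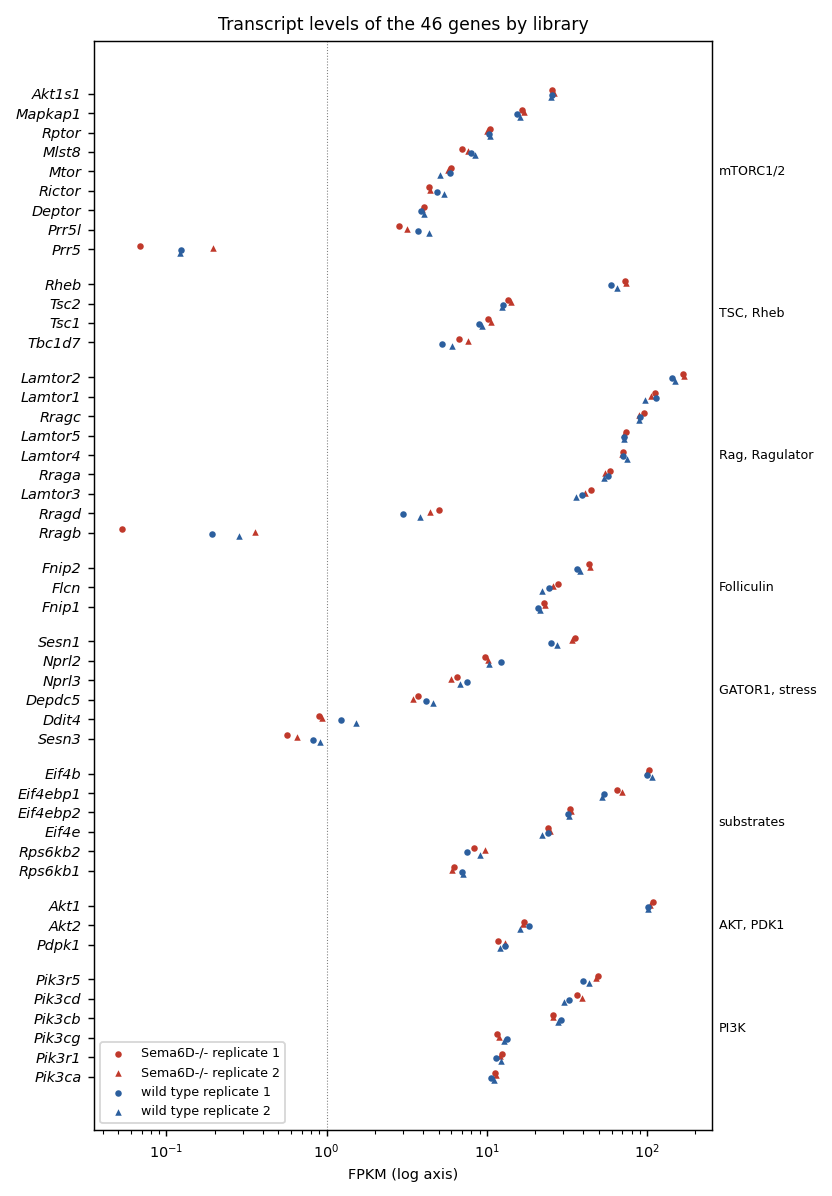
FPKM of each of the 46 genes (log axis), grouped by role, with red symbols for the libraries labelled Sema6D-/- and blue symbols for those labelled wild type; circles are replicate 1, triangles replicate 2, and the dotted line marks 1 FPKM. All genes but Prr5, Rragb, Sesn3 and Ddit4 lie between 2.84 and 170.8 FPKM, and Prr5, Rragb and Sesn3 lie under the line in every library.

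**Figure D2:**
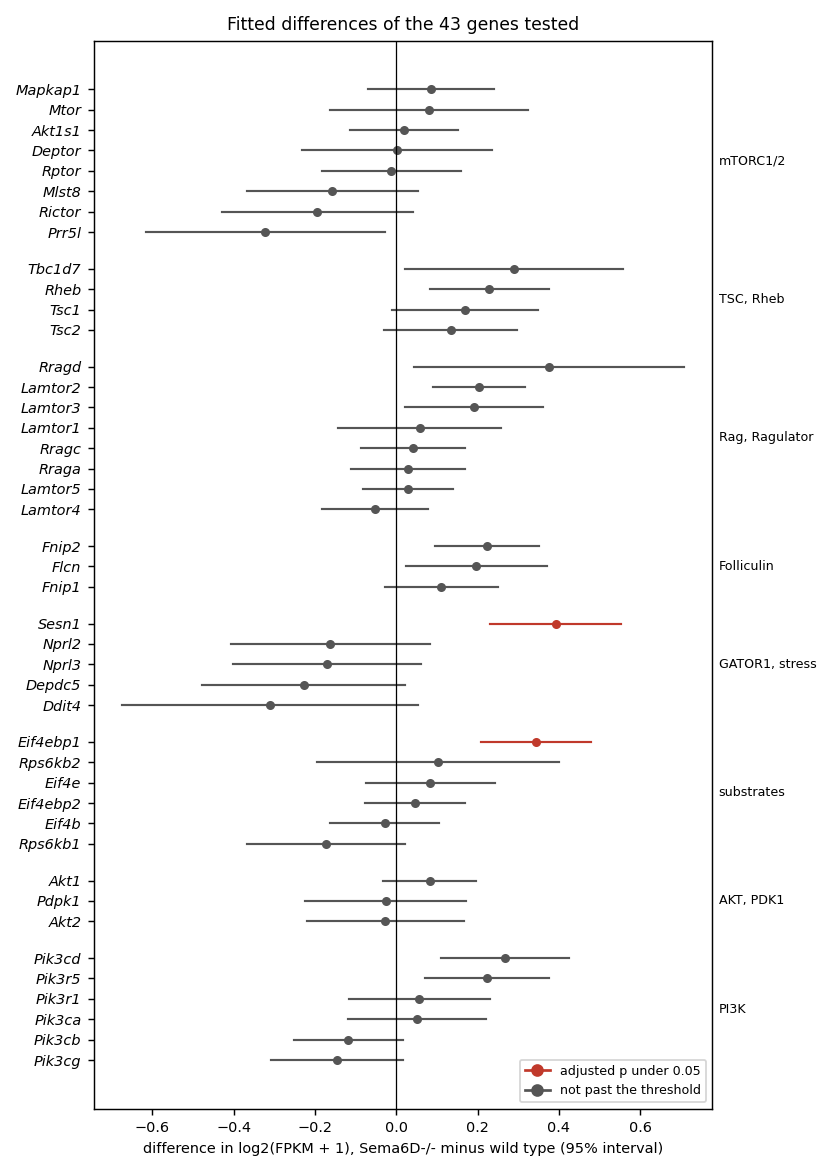
Fitted difference in log2(FPKM + 1), Sema6D-/- minus wild type, with its 95% interval for the 43 genes tested, grouped by role; red marks an adjusted p under 0.05. Sesn1 and Eif4ebp1 are red, the genes of the TSC-Rheb and folliculin groups all lie to the right of 0, and the GATOR1 genes lie to the left.

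The subunits of the mTOR complexes came first. None of the 8 tested passed, with 0 higher and 1 lower at an unadjusted p under 0.05. Mtor, the catalytic subunit of both complexes on chromosome 4 from 148448582 to 148557685 in mm10, stood at 5.95 and 5.71 FPKM under Sema6D-/- and 5.85 and 5.09 FPKM under wild type. These values overlapped, and the difference was 0.08 ± 0.10 (SE; 95% interval -0.16 to 0.32, adjusted p = 0.667). The interval lies inside a change of FPKM + 1 by a factor of 2 in either direction. Raptor and PRAS40, the mTORC1 scaffold and its inhibitory subunit, gave differences of -0.01 for Rptor and 0.02 for Akt1s1. Akt1s1 was the most abundant transcript of the group, with 25.4 and 26.1 FPKM under Sema6D-/- against 25.6 and 25.2 FPKM under wild type. Deptor, an inhibitor of both complexes, was at 4.07 and 3.92 FPKM against 3.89 and 4.08 FPKM, again overlapping.

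Values for subunits of mTORC2 were lower under Sema6D-/- for the scaffold and one accessory protein, though neither passed. Rictor, the scaffold, had 4.36 and 4.41 FPKM under Sema6D-/- and 4.90 and 5.42 FPKM under wild type (difference -0.19 ± 0.09 (SE), adjusted p = 0.274). Prr5l, which encodes the accessory subunit Protor-2, had 2.84 and 3.20 FPKM under Sema6D-/- and 3.71 and 4.35 FPKM under wild type (difference -0.32 ± 0.12 (SE), adjusted p = 0.168). For both genes the labels did not overlap, with lower values under Sema6D-/-, as for 27.4% of all tested genes. Prr5, a relative of Prr5l that encodes Protor-1, lay between 0.068 and 0.196 FPKM in all libraries, worth about 1 to 3 fragments each. Prr5l thus supplied nearly all Protor transcript in these cells. Mlst8, a subunit of both complexes, had 6.95 and 7.60 FPKM under Sema6D-/- and 7.98 and 8.47 FPKM under wild type (adjusted p = 0.318). Mapkap1, for the mTORC2 subunit SIN1, had 16.5 and 17.1 FPKM under Sema6D-/- against 15.5 and 16.1 FPKM under wild type (adjusted p = 0.46). The labels did not overlap for Mlst8, on the lower side. Nor did they for Mapkap1, on the higher side, as for 28.8% of all tested genes. The ratio of Rptor to Rictor transcript was 2.4 and 2.29 in the libraries labelled Sema6D-/- and 2.1 and 1.93 in those labelled wild type.

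All 4 genes of the TSC complex and Rheb had higher values in both libraries labelled Sema6D-/-, as 28.8% of all tested genes did, and none passed the test (2 higher and 0 lower at an unadjusted p under 0.05). Rheb, the GTPase that activates mTORC1 directly, had 72.7 and 73.5 FPKM under Sema6D-/- and 59.5 and 65.1 FPKM under wild type (1.17-fold, adjusted p = 0.0737). Its inhibitors had values on the same side. Tsc1, the stabilising subunit, had 10.2 and 10.7 FPKM under Sema6D-/- and 8.96 and 9.33 FPKM under wild type (adjusted p = 0.22), and Tsc2, the GTPase-activating subunit that acts on Rheb, was at 13.5 and 14.2 FPKM against 12.7 and 12.5 FPKM (adjusted p = 0.279). Tbc1d7, the third subunit and the least abundant, had 6.69 and 7.61 FPKM under Sema6D-/- and 5.25 and 6.09 FPKM under wild type (adjusted p = 0.174). The 4 differences ran from 0.13 to 0.29 on the log2 scale, so the fitted differences of the activator and of its inhibitors lay on the same side. The ratio of Tsc2 to Tsc1 was 1.33 and 1.33 under Sema6D-/- and 1.41 and 1.33 under wild type.

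The Rag GTPases and Ragulator hold mTORC1 at the lysosome, and their levels ran from under 1 FPKM for Rragb to the highest of the 46 genes. None of the 8 tested passed, with 3 higher and 0 lower at an unadjusted p under 0.05. Lamtor2, a core Ragulator subunit, headed the whole set with 167.9 and 170.8 FPKM under Sema6D-/- and 143.6 and 150.4 FPKM under wild type. Its difference of 0.20 ± 0.05 (SE) gave an adjusted p of 0.0532, just outside the threshold. Lamtor3, its partner within Ragulator, had 44.5 and 41.2 FPKM under Sema6D-/- and 39.0 and 35.9 FPKM under wild type (adjusted p = 0.158). The other Ragulator genes stood closer to no change: Lamtor1, the membrane anchor, Lamtor4 and Lamtor5 gave differences of 0.06, -0.05 and 0.03, and the libraries of the labels overlapped for Lamtor1 and Lamtor4. The fitted differences of the 5 subunits, which assemble into 1 complex, were unequal, and the difference between subunits was not tested.

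Among the Rag genes, Rraga and Rragc dominated. RagA made up 99.9% and 99.4% of RagA and RagB transcript under Sema6D-/- and 99.7% and 99.5% under wild type, with Rragb at 0.053 and 0.358 FPKM under Sema6D-/- and 0.194 and 0.285 FPKM under wild type, or about 1 to 7 fragments per library. Rragc, on the other side of the heterodimer, stood at 95.5 and 89.4 FPKM under Sema6D-/- and 90.3 and 89.1 FPKM under wild type. Rragd, whose transcription is known to be driven by the lysosomal regulator TFEB, had the largest difference of the group at low abundance. It had 5.02 and 4.41 FPKM under Sema6D-/- and 2.99 and 3.84 FPKM under wild type (1.38-fold, difference 0.38 ± 0.13 (SE), adjusted p = 0.158). RagD therefore made up 5.0% and 4.7% of RagC and RagD transcript under Sema6D-/- and 3.21% and 4.13% under wild type.

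Folliculin and its partners FNIP1 and FNIP2 form the complex that activates RagC and RagD. All 3 genes had higher values in both libraries labelled Sema6D-/- (28.8% of all tested genes did), and 0 passed, with 2 higher and 0 lower at an unadjusted p under 0.05. Fnip2 was the most abundant, with 43.5 and 43.8 FPKM under Sema6D-/- and 36.4 and 38.1 FPKM under wild type (difference 0.22 ± 0.05 (SE), adjusted p = 0.0562). Flcn had 27.6 and 25.9 FPKM under Sema6D-/- and 24.3 and 22.2 FPKM under wild type (adjusted p = 0.157). Fnip1 had 22.8 and 23.2 FPKM under Sema6D-/- and 20.9 and 21.6 FPKM under wild type (adjusted p = 0.294). Fnip2 took 65.6% and 65.4% of the FNIP transcript under Sema6D-/- and 63.5% and 63.8% under wild type.

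Of the GATOR1 genes and stress-induced inhibitors of mTORC1, 1 of 5 tested passed. Sesn1, which encodes a sestrin that restrains mTORC1 through GATOR2 when leucine is scarce, had the largest difference of the tested members in log2(FPKM + 1). As a fold of FPKM it stood at 1.32. Of the tested members, Rragd at 1.38, Prr5l at 0.75 and Ddit4 at 0.66, all of low abundance, lay further from no change. Sesn1 had 35.4 and 33.9 FPKM under Sema6D-/- and 25.0 and 27.3 FPKM under wild type, so the labels stood apart. It rose to 34.6 ± 1.0 FPKM under Sema6D-/-, against 26.2 ± 1.6 under wild type (SD, n = 2 libraries each), by 0.39 ± 0.06 (SE; 95% interval 0.23 to 0.55) on the log2(FPKM + 1) scale (adjusted p = 0.0235). The call was lost when wild type replicate 1 or either Sema6D-/- library was left out (highest adjusted p = 0.173), without a filter, with a variance model that ignores abundance, or with the replicate number as a block. The difference stayed between 0.33 and 0.45 with any 1 library left out.

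Sesn1 lies on chromosome 10 from 41810574 to 41908436. Its promoter is shown because it is the called member in which a searched motif was found. RefSeq (GRCm38.p6) also gives another Sesn1 start, with the window chr10:41887189-41887488, in which no searched motif was found. Which start these cells use was not tested. The window shown runs from 250 bases before to 50 after the start with the match, chr10:41810324-41810623 on the plus strand. It reads as follows, with a FOXO element on the reverse strand in capitals, starting 22 bases after the first transcribed base.
Sesn1: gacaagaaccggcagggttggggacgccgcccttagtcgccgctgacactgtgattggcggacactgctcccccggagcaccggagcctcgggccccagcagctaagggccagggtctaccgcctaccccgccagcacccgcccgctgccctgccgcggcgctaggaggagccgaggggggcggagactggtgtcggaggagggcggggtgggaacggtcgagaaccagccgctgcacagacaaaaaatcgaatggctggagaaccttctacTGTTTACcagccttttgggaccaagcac
The element searched was GTAAACA on both strands, a sequence bound by FOXO factors, which AKT keeps out of the nucleus. It was found in 3.65% of the 32851 promoter windows of all genes, coding and non-coding, and in 5 of the 57 windows of the genes described here (8.77%), those of Akt1, Mapkap1, Pik3cg and Sesn1. Mapkap1 has overlapping windows that hold the same site, which is counted in each of them. The E-box core CACGTG, part of the element bound by TFEB, was in 7.15% of all windows and in 8 of the 57 (14.0%), those of Eif4e, Fnip1, Lamtor1, Lamtor4, Rheb, Rragb, Rragc and Tbc1d7. TGATGNAA, which ATF4 binds, was in 3.97% of all windows and 3 of the 57 (5.26%), those of Akt2, Lamtor4 and Pik3cd. Windows were found for 42 of the 46 genes, and Deptor, Eif4ebp1, Lamtor3 and Rps6kb2 were not matched. A match describes these letters and is not a measured binding site.

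The genes of GATOR1, which switches the Rag GTPases off, all had lower values under Sema6D-/- without overlap between labels, as 27.4% of all tested genes did, and none passed. Depdc5 had 3.73 and 3.47 FPKM under Sema6D-/- and 4.19 and 4.59 FPKM under wild type (difference -0.23 ± 0.10 (SE), adjusted p = 0.235). Nprl3 and Nprl2 gave differences of -0.17 (adjusted p = 0.325) and -0.16 (adjusted p = 0.374). Ddit4, for the stress-induced inhibitor REDD1 that acts through the TSC complex, had 0.894 and 0.934 FPKM under Sema6D-/- and 1.23 and 1.53 FPKM under wild type (0.66-fold, difference -0.311 ± 0.145 (SE), adjusted p = 0.261). It rests on about 13 to 24 fragments per library and is the tested member nearest the filter. Sesn3 lay under the filter and was not tested, with 0.564 and 0.653 FPKM under Sema6D-/- and 0.825 and 0.907 FPKM under wild type, from about 44 to 76 fragments.

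Of the substrates of mTORC1 and the translation factors they control, 1 of 6 passed. Eif4ebp1, on chromosome 8 from 27260327 to 27275656, encodes 4E-BP1, which holds the cap-binding protein eIF4E inactive until mTORC1 phosphorylates it. It had 65.2 and 69.7 FPKM under Sema6D-/- and 53.6 and 52.3 FPKM under wild type, with no overlap. It rose to 67.5 ± 3.2 FPKM under Sema6D-/-, against 52.9 ± 0.94 under wild type (SD, n = 2 libraries each), by 0.34 ± 0.05 (SE; 95% interval 0.21 to 0.48) in log2(FPKM + 1) (adjusted p = 0.0211). Leaving out any 1 library ended the call (highest adjusted p = 0.119), as did the fit without a filter and the one that ignores abundance, while the difference stayed between 0.295 and 0.391 with 1 library left out.

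None of the other 5 genes of the group passed. Eif4ebp2, the second 4E-BP, had 33.2 and 33.5 FPKM under Sema6D-/- and 32.0 and 32.5 FPKM under wild type (adjusted p = 0.625). 4E-BP1 thus made up 66.3% and 67.6% of the transcript of both genes under Sema6D-/- and 62.6% and 61.6% under wild type. Eif4e, the protein they bind, had 24.1 and 25.0 FPKM under Sema6D-/- and 24.0 and 22.2 FPKM under wild type (adjusted p = 0.477), and the ratio of Eif4ebp1 to Eif4e was 2.7 and 2.79 under Sema6D-/- and 2.23 and 2.35 under wild type. Eif4b, an initiation factor phosphorylated by S6 kinase, was the most abundant at 103.0 and 100.4 FPKM under Sema6D-/- and 99.99 and 107.6 FPKM under wild type. Rps6kb1, for S6 kinase 1, had the lowest level of the group, with 6.20 and 6.09 FPKM under Sema6D-/- and 6.97 and 7.13 FPKM under wild type (difference -0.17 ± 0.08 (SE), adjusted p = 0.245). Rps6kb2, for S6 kinase 2, overlapped between labels at 8.32 and 9.68 FPKM under Sema6D-/- and 7.53 and 9.12 FPKM under wild type.

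The kinases AKT and PDK1 gave 0 calls among 3 genes, and 0 at an unadjusted p under 0.05. Akt1, more abundant than Akt2 in these cells, had 109.6 and 104.9 FPKM under Sema6D-/- and 101.7 and 100.8 FPKM under wild type (difference 0.08, 95% interval -0.03 to 0.20, adjusted p = 0.333). Akt2 had 17.0 and 16.8 FPKM under Sema6D-/- and 18.4 and 16.2 FPKM under wild type, and Pdpk1, for PDK1, which phosphorylates AKT, had 11.7 and 12.9 FPKM under Sema6D-/- and 12.9 and 12.1 FPKM under wild type. Both overlapped, with intervals of -0.22 to 0.17 for Akt2 and -0.22 to 0.17 for Pdpk1.

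None of the 6 class I PI3K genes passed, with 2 higher and 0 lower at an unadjusted p under 0.05. Pik3cd, for the leukocyte catalytic subunit p110δ, had 36.7 and 39.4 FPKM under Sema6D-/- and 32.4 and 30.5 FPKM under wild type (1.21-fold, difference 0.27 ± 0.06 (SE), adjusted p = 0.0604). Pik3cb, for the widely expressed p110β, had 26.1 and 26.0 FPKM under Sema6D-/- and 28.9 and 27.8 FPKM under wild type (adjusted p = 0.247). Pik3cg, for p110γ, which acts downstream of G-protein-coupled receptors, had 11.6 and 11.9 FPKM under Sema6D-/- and 13.3 and 12.9 FPKM under wild type (adjusted p = 0.238). Labels did not overlap for any of these 3 genes, with p110δ on the higher side and p110β and p110γ on the lower side under Sema6D-/-. Of all tested genes, 28.8% stood apart on the higher side and 27.4% on the lower side. The difference between isoforms was not tested. Pik3ca, for p110α, was the least abundant, with 11.2 and 11.4 FPKM under Sema6D-/- and 10.6 and 11.1 FPKM under wild type.

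As a share of all class I catalytic transcript, Pik3cd made up 42.9% and 44.4% under Sema6D-/- and 38.1% and 37.0% under wild type. Pik3cb made up 30.5% and 29.3% under Sema6D-/- and 33.9% and 33.8% under wild type. The Pik3cd share was 6.12 percentage points higher under Sema6D-/- and 5.37 to 6.88 points higher with any 1 library left out. No test was run on these shares. Pik3r5, for the p101 adaptor that pairs with p110γ, had 49.4 and 47.9 FPKM under Sema6D-/- and 39.7 and 43.4 FPKM under wild type (1.17-fold, adjusted p = 0.0876). The ratio of Pik3r5 to Pik3cg was therefore 4.26 and 4.04 under Sema6D-/- and 2.99 and 3.37 under wild type. Pik3r1, for the p85α adaptor of the other catalytic subunits, gave a difference of 0.06 (95% interval -0.12 to 0.23) with overlapping libraries. Neutrophils also express these leukocyte PI3K genes, and neutrophil markers were higher under Sema6D-/- by the sums given above. S100a8 and S100a9 made up most of those sums, and the neutrophil marker Csf3r was lower. The part of neutrophils in these values was not tested.

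**Figure D3:**
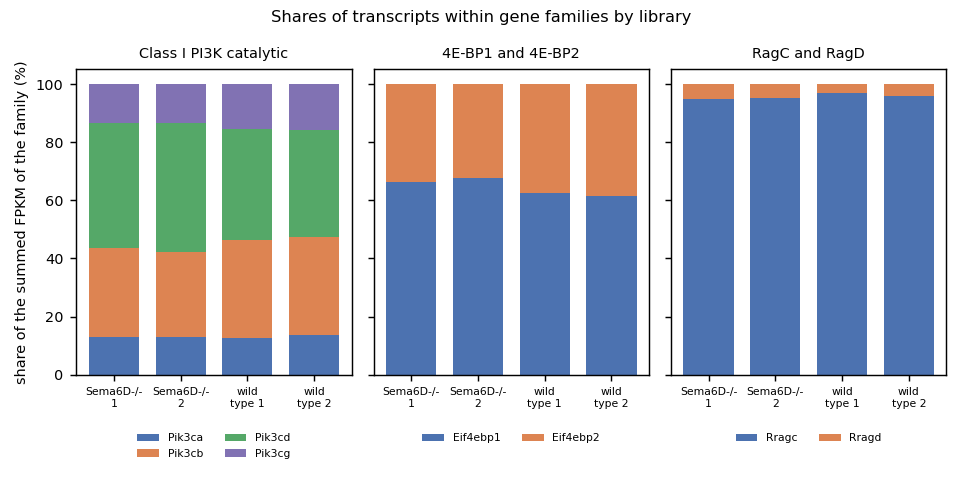
Share of the summed FPKM of each family taken by each gene (percent, stacked bars from 0), by library, with the libraries labelled Sema6D-/- to the left of those labelled wild type. Pik3cd takes 42.9% and 44.4% of class I catalytic transcript under Sema6D-/- and 38.1% and 37.0% under wild type, and Eif4ebp1 takes a larger share of the 4E-BP pair under Sema6D-/-.

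Mtor and Pik3cd lie near each other on distal chromosome 4, where some genes had differences far larger than theirs, in both directions. Clstn1, a calsyntenin gene, lies 268 bases from the lower-coordinate end of the Pik3cd interval. Pik3cd is on the minus strand, so that end is the one away from its transcription starts. Clstn1 had 1.56 and 1.36 FPKM under Sema6D-/- and 13.2 and 13.1 FPKM under wild type (difference -2.52, adjusted p = 0.000336). Within 1 Mb of Mtor, with higher values under Sema6D-/-, the predicted gene Gm13157 had 12.6 and 11.7 FPKM under Sema6D-/- and 0.199 and 0.351 FPKM under wild type, and Plod1, for a lysyl hydroxylase, had 34.6 and 32.7 FPKM under Sema6D-/- and 12.2 and 11.8 FPKM under wild type (difference 1.42). Within 1 Mb of Pik3cd, 4 of 15 other tested genes were called (26.7%, 1 higher and 3 lower), and within 1 Mb of Mtor 7 of 26 (26.9%, 3 higher and 4 lower), windows that share genes, against 9.72% of all tested genes. Around members elsewhere the share ran from 0.0%, as for Lamtor4 (36 genes tested), Pik3r5 (20) and Rheb (19), to 1 of 2 genes for Rictor. It was 30.0% for Eif4ebp2 (10 genes) and 25.0% for Tsc1 (16), Tbc1d7 (8), Rraga (4), Lamtor5 (20) and Ddit4 (12). Many of these windows are small, and the windows were not compared by a test. Clstn1, Gm13157 and Plod1 were chosen after their values were seen. Whether the position bears on the values of Mtor or Pik3cd was not tested.

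**Figure D4:**
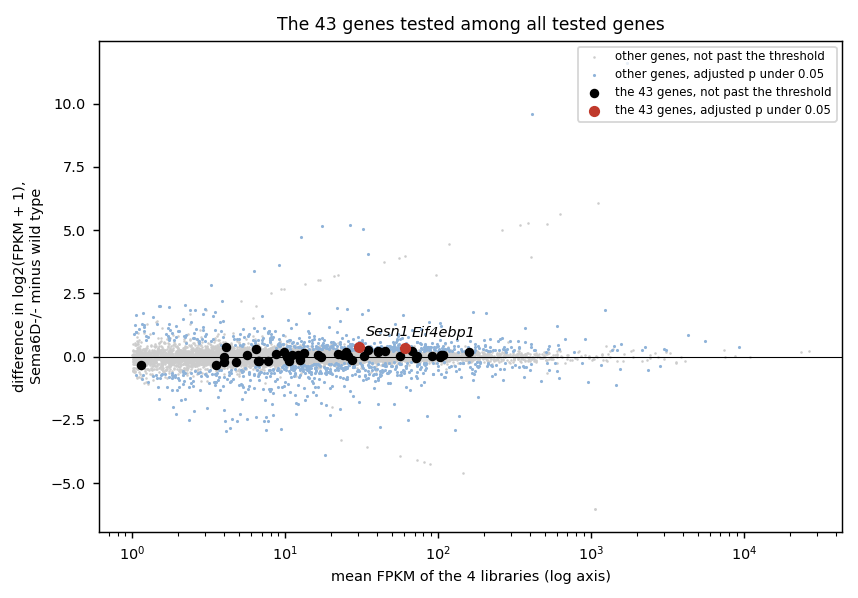
Difference in log2(FPKM + 1), Sema6D-/- minus wild type, against the mean FPKM of the 4 libraries (log axis) for all 10115 tested genes, with the 43 genes in black or, where the adjusted p was under 0.05, in red. The 43 genes lie between -0.32 and 0.39, inside the band that most genes occupy, and Sesn1 and Eif4ebp1 are the red points.

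A further list of 70 genes of the same pathway was read from the same fit, all of them found and 60 of them tested. It had 2 called higher (background 4.8%) and 0 called lower, with 9 higher and 5 lower at an unadjusted p under 0.05 (23.3% of the 60, against 25.1% of all tested genes), and its differences lay above 0 for 31 genes and below for 29. Cab39, for the MO25 scaffold of the kinase LKB1, which activates AMPK, had 85.6 and 85.3 FPKM under Sema6D-/- and 66.7 and 68.6 FPKM under wild type, and rose 1.26-fold (adjusted p = 0.0132). Eef2k, for the kinase that slows translation elongation and is restrained by S6 kinase, had 3.75 and 3.29 FPKM under Sema6D-/- and 2.03 and 1.85 FPKM under wild type, and rose 1.82-fold (adjusted p = 0.0335). The labels stood apart for both. Cab39 lost its call without either Sema6D-/- library and in the fit that ignores abundance (highest adjusted p = 0.111), and Eef2k without any 1 library, without a filter or with the replicate block (highest adjusted p = 0.177).

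Among the other amino acid sensors and their GATOR2 and KICSTOR partners, 0 of 13 passed, with 3 higher and 2 lower at an unadjusted p under 0.05. Sesn2, the leucine-sensing sestrin induced by ATF4, had 9.53 and 8.67 FPKM under Sema6D-/- and 6.00 and 3.78 FPKM under wild type (1.86-fold, difference 0.80 ± 0.19 (SE), adjusted p = 0.0598). The wild type libraries differed more from each other than those labelled Sema6D-/-, and the gene passed without wild type replicate 1, with the replicate block and with robust estimation (lowest adjusted p = 0.0184). Castor2, related to the arginine sensor CASTOR1, had 5.55 and 5.92 FPKM under Sema6D-/- and 3.97 and 4.49 FPKM under wild type (adjusted p = 0.0847). The 2 lower genes were Kptn, for a KICSTOR subunit, with 3.44 and 2.80 FPKM under Sema6D-/- and 4.40 and 4.71 FPKM under wild type (difference -0.44, adjusted p = 0.0867), and Bmt2, for the S-adenosylmethionine sensor SAMTOR, with 33.5 and 37.3 FPKM against 43.9 and 40.9 FPKM (adjusted p = 0.0976); both were chosen after their values were seen. The 3 sestrin genes thus had values on both sides, with Sesn1 and Sesn2 higher under Sema6D-/- in both libraries and Sesn3 lower.

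Of the mTOR assembly and AMPK genes, 1 of 14 passed, Cab39 above. Prkag1, an AMPK regulatory subunit, had 28.8 and 30.5 FPKM under Sema6D-/- and 26.7 and 25.3 FPKM under wild type (adjusted p = 0.142). Of 19 further substrates of mTOR and AKT, 1 passed, Eef2k above, and 11 had higher values in both libraries labelled Sema6D-/- against 5 that had lower ones (57.9% and 26.3% of the 19, with 28.8% and 27.4% of all tested genes). Foxo3, a FOXO factor inhibited by AKT, had 21.6 and 19.7 FPKM under Sema6D-/- and 13.6 and 16.8 FPKM under wild type (1.36-fold, adjusted p = 0.079), and passed without wild type replicate 2 (adjusted p = 0.0426). Of 14 further PI3K, adaptor and phosphatase genes 0 passed, with 0 higher and 2 lower at an unadjusted p under 0.05. Phlpp1, a phosphatase that acts on AKT, had 7.70 and 7.97 FPKM under Sema6D-/- and 8.92 and 10.5 FPKM under wild type (adjusted p = 0.157). Inpp5d, for the lipid phosphatase SHIP1 that opposes PI3K, was close to no change, with a difference of 0.004 (95% interval -0.11 to 0.12).

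**Figure D5:**
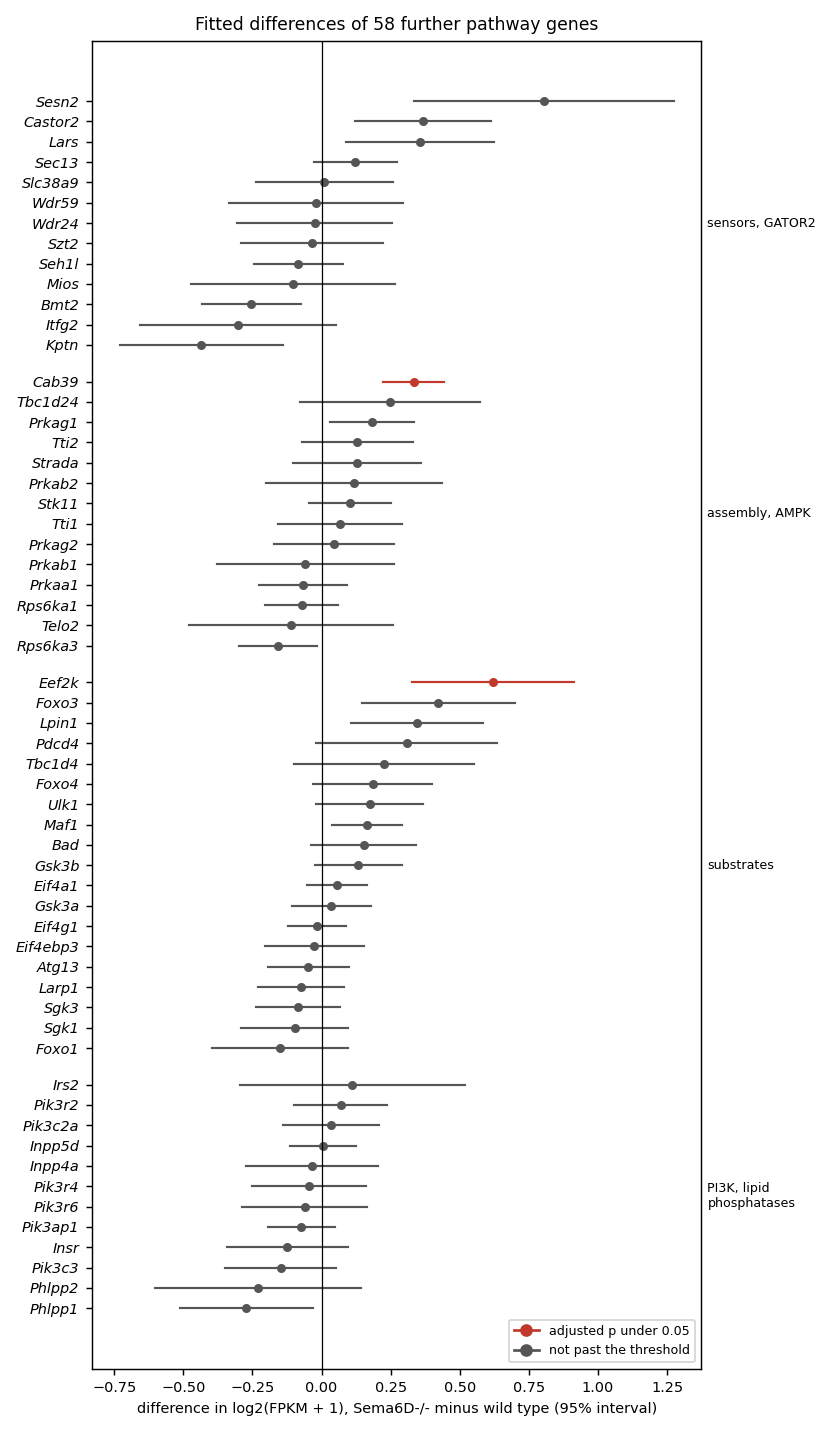
Fitted difference in log2(FPKM + 1), Sema6D-/- minus wild type, with its 95% interval for 58 further genes of the pathway in 4 lists; red marks an adjusted p under 0.05. Cab39 and Eef2k are red, and Sesn2 has the largest difference, 0.80, with a wide interval.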

How the data were processed

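Macrophage RNA was isolated with a microRNA kit and made into 4 strand-specific libraries (SureSelect), per the labels' protocols. The deposited FPKM values were made by the authors with TopHat2 2.0.13, Bowtie2 2.2.3, SAMtools 0.1.19 and Cuffnorm 2.2.1 on mm10, per the submitters' processing notes; the sources used here do not name the annotation, the strand setting or the handling of multi-mapping reads. Values were joined by symbol. Depth was estimated from FPKM under 0.1 and GENCODE exon lengths and is approximate. Differences, Sema6D-/- minus wild type, were fitted with limma 3.58.1 in R 4.3.3 (eBayes with trend, two-sided) on log2(FPKM + 1) for genes averaging 1 FPKM or more, adjusted over 10115 genes by Benjamini-Hochberg at 0.05. Pseudocounts understate changes of low genes. Replicates of a label differed by a median of 0.0812 (Sema6D-/-) and 0.0888 (wild type) on that scale. A simulation of 10115 genes with independent errors gave 7 false calls among 160. The genes, lists and tests were chosen with earlier results of these data known. Genes given with values by library were Mtor, those called, the 3 of smallest p and the highest and lowest of each role, with a few more for their role; of the further genes, those called and up to 2 of smallest p per list, with Inpp5d for its role; some further genes are not reported here. Positions are from RefSeq GRCm38.p6.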

Additional observations from a re-analysis of the deposited data

How the results depend on the processing

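Of the 43 genes, 2 were called higher and 0 lower in the fit reported. Pseudocounts of 0.1 or 5, a filter at a mean of 5 FPKM, scaling by median of ratios and quantile normalization each called the same 2. Without a filter 0 were called, with eBayes without trend 0, with robust estimation 5 (adding Fnip2, Lamtor2 and Pik3cd) and with the replicate block 1 (Eif4ebp1); 0 to 1 were called with 1 library left out. No setting called any of them lower, and their median difference stayed between 0.03 and 0.06. Over all genes, 486 higher and 497 lower became 256 and 248 without a filter and 261 and 327 without trend, and 300 were higher with the block; with 1 library left out they numbered 72 to 276 and 87 to 290. The further genes called higher, 2, became 1 with no filter, with a filter at 5 FPKM or without trend. The filter at 5 FPKM left Eef2k untested, as its mean was 2.73 FPKM. Robust estimation added Sesn2, and the replicate block called Cab39 and Sesn2. The title numbers are not stated to mark a shared source, and deviations of same-numbered libraries correlated at -0.018 across genes, so the block pairs by number alone.

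Leaving out 1 library reversed the sign of differences near 0, none of them called: Mtor -0.005 (range -0.005 to 0.166), Akt1s1 -0.001 (to 0.039), Akt2 0.058 (from -0.112), Eif4b 0.024 (from -0.081), and Pdpk1 0.014 and 0.042 (from -0.094). A fit on 3 libraries has less power, which by itself can end a call. Genes near 1 FPKM rest on few fragments.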
